A study of Mus musculus with 6 samples.

Results

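The type I interferon-stimulated genes examined here are 31 genes of the antiviral response, out of 32287 genes in the count matrices, and all 31 were found by symbol in every library. They were chosen as interferon-stimulated genes other than the interferon-inducible GTPases and the genes of the major histocompatibility complex. Their level and the size of the genotype difference were followed over 8 cell classes of the brain vasculature: arterial, capillary, and venous endothelial cells (EC), fenestrated EC, smooth muscle cells, pericytes, microglia, and perivascular macrophages. The cells came from untreated male mice at 12 months of age, 3 WT mice (C57BL/6J) and 3 mice labelled tg App ArcSwe, called ArcSwe here, with 1 cerebral hemisphere and 1 library per mouse. ArcSwe mice carry human APP with the Swedish and Arctic mutations and have plaques and amyloid along vessels at this age; the promoter that drives the transgene is not given in the sources used here, and mouse *App* counts did not separate the genotypes. The experiment asked whether vascular cells respond in a model with large vascular amyloid. Vessel fragments were caught on CD31 beads before they were digested to cells, so microglia and macrophages in these libraries are those that stayed with the vessels.

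Type I interferons bind the receptor pair IFNAR1 and IFNAR2, and the kinases JAK1 and TYK2 then start a signal in which a complex that holds STAT2 and IRF9 enters the nucleus and binds a repeated GAAA element near the start of its target genes. The products of these genes block steps of a viral life cycle, sense foreign nucleic acid, or tune the response itself, and in the ageing or amyloid-bearing brain a part of the microglia is known to carry the same set of transcripts.

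After filters on genes per cell and mitochondrial content 44112 of 49059 cells were kept, and 34693 fell in the 8 classes. The classes held 4559 arterial, 17976 capillary, 931 venous, and 845 fenestrated EC, 3034 smooth muscle cells, 490 pericytes, 6759 microglia, and 99 perivascular macrophages. Libraries held 26436229 to 59161203 UMIs and shared 4 to 42 cell barcodes with one another. Each class but the last was led by its own markers. In the perivascular macrophages the summed marker level was 4210 counts per 1000000 UMIs (CPM) in the only WT mouse with at least 10 such cells and 3581 and 5706 CPM in the ArcSwe mice, whereas the microglial list stood at 12580 CPM against 13350 and 10920 CPM and the monocyte and neutrophil list at 9348 CPM against 10210 and 6888 CPM. These 99 cells are therefore a mixture by their markers, and the class is kept under its rule only. In summed counts, fewer cells with a transcript and less transcript per cell cannot be told apart.

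The repeated GAAA element was read in the promoter windows of the members, since it is the sequence by which the response is known to be started. A RefSeq window (GRCm38.p6, 250 bases before to 50 after the start) was found for 26 of the 31 genes, and *Usp18*, *Ifi27l2a*, *Rtp4*, *Zbp1*, and *Parp14* had none. The core GAAANNGAAA, searched on both strands and so also as TTTCNNTTTC, was present in 13 of the 26 (50.0%), against 3.44% of 32851 windows of the same length. The first share counts genes, some of them with more than 1 window, and the second counts windows. Shown are *Ifit1*, *Ifit3*, and *Ifit3b*, which did not overlap between the genotypes in 3 classes each, and the related genes *Ifi211* and *Ifi207*, with the core in capitals. Not shown are *Ifitm3* (5 such classes), which holds 2 cores, and *Trim69* (4 classes) and *Irf7* (3 classes), whose windows hold no core. *Ifit1* (chr19:34640755-34640843, plus strand) and *Ifit3* (chr19:34583343-34583446, plus strand) each hold 2 cores.
Ifit1: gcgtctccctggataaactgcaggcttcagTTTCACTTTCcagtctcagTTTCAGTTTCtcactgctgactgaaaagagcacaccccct
Ifit3: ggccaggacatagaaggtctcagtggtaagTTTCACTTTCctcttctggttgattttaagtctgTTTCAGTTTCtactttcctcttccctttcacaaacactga
Ifit3b: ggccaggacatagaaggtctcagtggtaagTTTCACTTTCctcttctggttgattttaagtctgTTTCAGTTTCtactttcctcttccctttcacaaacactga
Ifi211: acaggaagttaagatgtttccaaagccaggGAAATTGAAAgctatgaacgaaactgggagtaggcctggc
Ifi207: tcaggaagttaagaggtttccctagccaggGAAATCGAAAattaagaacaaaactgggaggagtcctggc
The *Ifit3b* stretch (chr19:34607739-34607842, plus strand) was identical to that of *Ifit3* over all 104 bases, and over the whole windows 201 of 268 aligned bases agreed. *Ifi211* (chr1:173913044-173913113, minus strand) and *Ifi207* (chr1:173741811-173741880, minus strand) have 1 core each. As a check of the starts, bases after the start were looked for in the GENCODE transcripts of the same gene and found for 24 of the 32 windows of the members, among them those of *Ifit1*, *Ifit3*, and *Ifi211* but not those of *Ifit3b* and *Ifi207*. Counts of such related copies can be split or shared in counting, so the division of UMIs between *Ifit3* and *Ifit3b*, between *Ifi211* and *Ifi207*, and between *Phf11d* and its relatives is uncertain.

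Levels in WT mice were ranked over the 7 classes that had at least 10 cells in every mouse, so without the perivascular macrophages. In this ranking 29 of the 31 genes had their highest mean level in an EC class, 18 of them in arterial, 6 in fenestrated, 3 in capillary, and 2 in venous EC. The exceptions were *Lgals3bp*, a secreted glycoprotein, at 53.4 ± 8.61 CPM (SD, n = 3) in microglia against 52.9 ± 6.66 CPM in arterial EC, and *Ifi211*, which was highest in pericytes at 14.5 ± 6.03 CPM against 11.8 ± 5.76 CPM in fenestrated EC, with overlapping mice in both cases. Only 8 of the 31 genes had a leading class whose 3 WT mice all lay above those of the next class. The perivascular macrophages of WT mice 1, 2, and 3, with 4, 7, and 41 cells, held a summed level of 2773, 3594, and 4011 CPM, near that of arterial EC (3693, 3222, and 3527 CPM). With *Ifitm3* left out of the sum they stood at 2327, 2971, and 3361 CPM, above every WT endothelial value (1257 to 2149 CPM).

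*Irf7*, the transcription factor that amplifies interferon production, was one of those 8, at 78.1 ± 9.17 CPM in arterial EC against 49.5 ± 8.67 CPM in capillary EC. *Bst2*, which codes for the virus-tethering protein tetherin, led in fenestrated EC at 363 ± 63.4 CPM, above 236 ± 31.5 CPM in arterial EC. *Ifi27l2a*, a small hydrophobic protein gene, ran from 90.7 ± 12.0 CPM in arterial EC through 53.0 ± 6.01 CPM in venous and 33.2 ± 6.70 CPM in capillary EC to 1.99 ± 0.524 CPM in fenestrated EC. *Ifih1*, which codes for the RNA sensor MDA5, stood at 105 ± 9.43 CPM in arterial and 73.6 ± 6.51 CPM in capillary EC, and at 49.2 ± 7.03 CPM in microglia.

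Venous EC had the most *Ifitm3*, whose product hinders fusion of viruses with the cell, at 1891 ± 359 CPM, but overlapped arterial EC at 1434 ± 106 CPM. Its order then ran over fenestrated EC (1014 ± 106 CPM), capillary EC (831 ± 54.4 CPM), pericytes (471 ± 41.2 CPM), and smooth muscle cells (251 ± 12.9 CPM) to microglia (42.0 ± 11.9 CPM), with no overlap between these neighbours. *Isg15*, a ubiquitin-like modifier, had another order, from 199 ± 24.5 CPM in arterial EC to 48.7 ± 11.5 CPM in microglia and then 43.2 ± 10.2 CPM in smooth muscle cells and 33.7 ± 9.51 CPM in pericytes, and each pair of neighbours overlapped. Mean levels were higher in capillary EC than in microglia for 26 of the 31 genes in WT mice and for 20 of the 31 in ArcSwe mice.

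**Figure D1:**
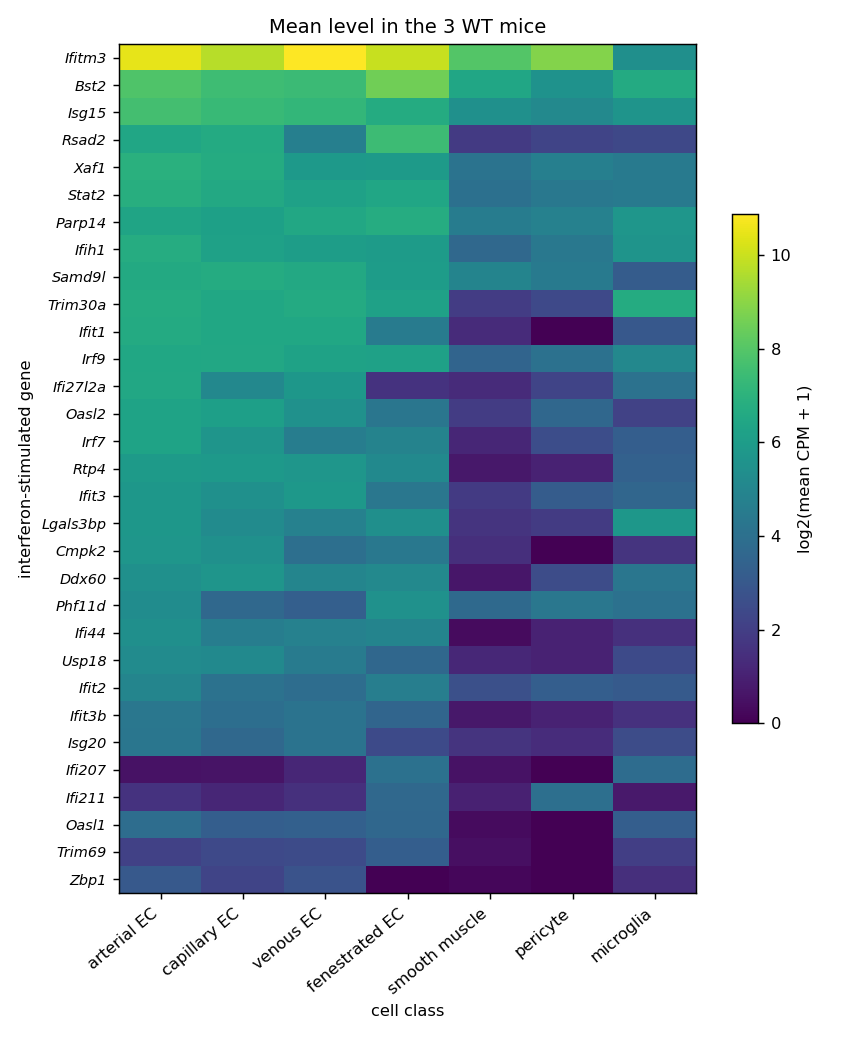
Heat map of the level of each of the 31 genes (rows) in 7 cell classes (columns), as log2(mean CPM + 1) over the 3 WT mice. Read along a row, the brightest cell marks the highest level. It lies in an endothelial column for 29 genes, in the microglial column for Lgals3bp, and in the pericyte column for Ifi211. Levels are not comparable between rows.

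Microglia showed the largest genotype difference. All 31 genes could be tested there and all 31 had a log2 fold change above 0, against 46.4% of 11092 genes, with a median of 1.93 against -0.04 over all genes. Of the 31, 22 reached the count minimum in every mouse, and with the test limited to such genes 22 of 22 were above 0 with a median of 1.51. The other 9 reached it in fewer than 3 WT mice, 3 of them in none, and so entered the test wholly or partly through the ArcSwe mice, in which they were higher. With edgeR 3 genes passed an adjusted p of 0.05 (*Ifi27l2a*, *Ifi211*, and *Ifit1*), where 0.252% of all genes did. DESeq2 called 18 of the 31, against 1.53% of all genes. At an unadjusted p under 0.05 in edgeR, 25 genes were higher in ArcSwe (7.32% of all genes) and none was lower (3.57%), and in 20 genes all ArcSwe mice lay above all WT mice (5.63%).

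*Ifi27l2a* stood at 13.5, 17.4, and 18.1 CPM in WT mice 1, 2, and 3 and at 305, 58.6, and 265 CPM in ArcSwe mice 1, 2, and 3. The genotypes did not overlap, ArcSwe mouse 2 was the lowest of its group, and the log2 fold change was 3.84 ± 0.55 (SE; edgeR, adjusted p = 0.0435). *Ifit1*, whose product binds viral RNA that lacks a host cap, had 7.72, 5.51, and 7.42 CPM in WT mice and 24.1, 30.2, and 61.3 CPM in ArcSwe mice, with a log2 fold change of 2.63 ± 0.39 (edgeR, adjusted p = 0.0473). Here too every ArcSwe mouse was above every WT mouse, and ArcSwe mouse 3 was the highest. *Ifi211*, of the p200 family of DNA sensors, rested on 2 to 4 UMIs per WT mouse and 2 to 31 UMIs per ArcSwe mouse (3.28 ± 0.48, edgeR, adjusted p = 0.0435). It lay below the count minimum in every WT mouse and so entered the test through the ArcSwe mice only. A filter blind to genotype, which leaves such genes out, gave 1 call. Each of the 3 calls made with all mice was lost, leaving 0 of 31, on leaving out WT mouse 1 or 2 or ArcSwe mouse 1 or 3. By contrast, 14 genes were called without WT mouse 3 and 11 without ArcSwe mouse 2.

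Of the other largest microglial differences, *Ifit2* (54.4, 24.8, and 124 CPM in ArcSwe mice, 5.92 to 9.91 CPM in WT mice) had a log2 fold change of 3.32 (edgeR, adjusted p = 0.052). *Oasl2*, a relative of the oligoadenylate synthetases, had 3.08 (adjusted p = 0.0543), and *Ifi207* had 3.03 (adjusted p = 0.0508). *Ifih1*, singled out after its values were seen, had 42.3, 56.4, and 48.7 CPM in WT mice and 305, 131, and 503 CPM in ArcSwe mice (2.81, adjusted p = 0.0508). For these 4 genes the mice of the genotypes did not overlap, and their adjusted p missed the threshold.

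The other members always reported gave smaller values in microglia, none of them past the threshold. The log2 fold change was 2.63 for *Zbp1* (a sensor of Z-form nucleic acid), 2.27 for *Ifitm3*, 1.93 for *Isg15*, 1.76 for *Ifit3*, 1.70 for *Rtp4*, 1.45 for *Usp18* (the protease that removes ISG15 and restrains the receptor), 1.39 for *Irf7*, 1.25 for *Bst2*, and 0.63 for *Stat2*. *Isg15* stood at 49.0, 60.1, and 37.1 CPM in WT mice and 204, 71.0, and 236 CPM in ArcSwe mice, without overlap. *Irf7* overlapped, since ArcSwe mouse 2 (5.32 CPM, 3 UMIs) lay below all WT mice (7.18 to 9.25 CPM). By role, the medians were highest in the oligoadenylate synthetase-like genes (2.94, 2 genes), the nucleic acid sensors (2.81, 5 genes), and the *Ifit* genes (2.49, 4 genes), and lowest in the transcription factors *Irf7*, *Irf9*, and *Stat2* (0.63, 3 genes).

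Microglia were not the same mixture of clusters in each mouse. Clusters 5 and 13, with a median ribosomal content of 1.94% and 1.88% of UMIs, held 1874 of 3340 WT and 2618 of 3419 ArcSwe microglia. Their depth was close to the limit under which a cluster would have been left unnamed, and no microglial marker was among their 10 leading genes. Cluster 11, led by *Crybb1*, *Cx3cr1*, and *P2ry12*, held 766, 608, and 56 cells of the WT mice and 182, 9, and 31 cells of the ArcSwe mice. Cluster 17, led by *Cst7*, *Igf1*, *Ifnb1*, and *Clec7a*, held 6, 3, and 19 cells and 124, 6, and 405 cells in the same order. Median UMIs per microglial cell ran from 1114 to 5934 between mice.

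The summed level of the 31 genes was also taken within these clusters. In cluster 11 it was 637, 684, and 809 CPM in the WT mice and 1136, 813, and 2304 CPM in the ArcSwe mice, without overlap, although ArcSwe mouse 2 had 9 cells. In cluster 5 it was 736, 659, and 972 CPM against 1009, 561, and 1514 CPM, with ArcSwe mouse 2 below all WT mice. Cluster 17 stood at 1425, 973, and 1899 CPM in the 28 WT cells and 4554, 2823, and 4696 CPM in the ArcSwe cells. It held 63.4, 40.2, and 69.1% of the microglial UMIs of these genes in ArcSwe mice 1, 2, and 3. Among clusters with at least 5 cells in a mouse, it was the highest in each ArcSwe mouse. Cluster 25 had 3203 and 3943 CPM in ArcSwe mice 1 and 3, and 7386 CPM in 2 cells of ArcSwe mouse 2. In WT mouse 2, cluster 13 (1329 CPM, 11 cells) lay above cluster 17. These are descriptions, since the clusters were made from the same cells, though without the interferon genes.

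**Figure D2:**
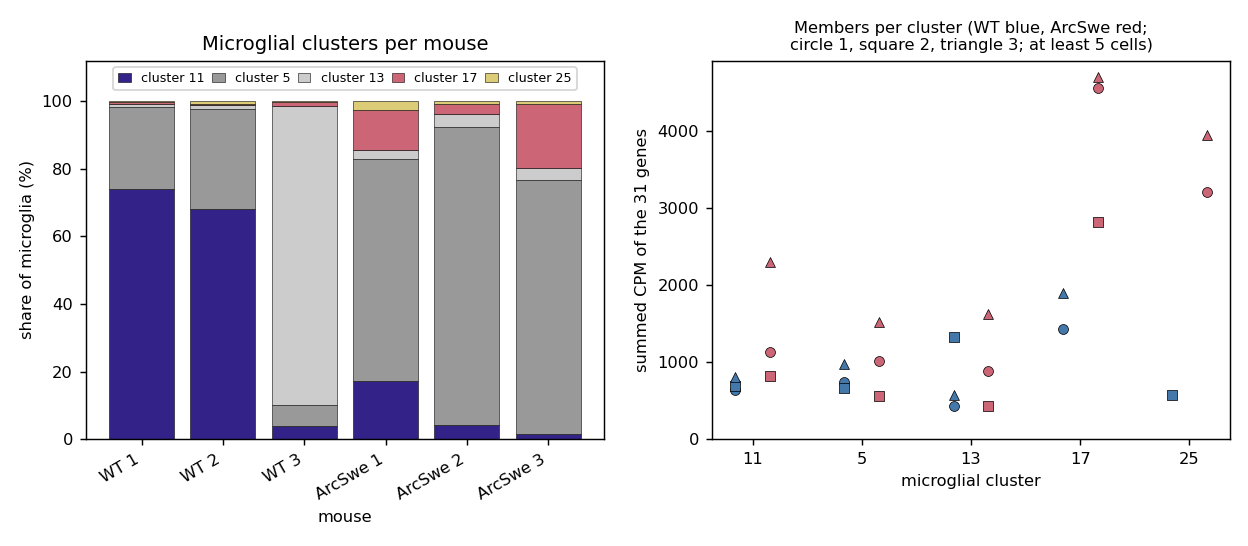
Left, share of the microglia of each mouse in clusters 5, 11, 13, 17, and 25 (stacked bars, percent). Right, summed CPM of the 31 genes per cluster and mouse with at least 5 cells (1 point per mouse): cluster 17 lies highest in ArcSwe mice, and in cluster 11 the ArcSwe mice lie above the WT mice.

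Leaving out clusters 5 and 13 raised the number of calls from 3 to 20 of 31 in edgeR (2.33% of 10042 genes) and gave 19 in DESeq2 (2.62%), with a median log2 fold change of 2.42. All 31 genes were above 0 (48.5% of all genes), 28 were higher at an unadjusted p under 0.05 in edgeR (12.3%), and 21 did not overlap (6.11%). How many of the 31 entered this test through the ArcSwe mice, in which they were higher, was not counted. A filter blind to genotype was not run on this set, so these counts are not free of that selection. This left 76 cells of WT mouse 3 and 17 cells of ArcSwe mouse 2. *Ifi27l2a* then stood at 14.4, 19.4, and 44.1 CPM in WT mice and 427, 235, and 486 CPM in ArcSwe mice (4.39 ± 0.42, adjusted p = 0.00498), and *Ifitm3* at 32.1, 32.1, and 53.9 CPM against 181, 206, and 435 CPM (3.15 ± 0.38, adjusted p = 0.00722). Neither overlapped, and ArcSwe mouse 2 was no longer far below the other ArcSwe mice for *Ifitm3*. Of the members always reported, *Zbp1* (3.32), *Ifit3* (2.42), *Isg15* (2.36), *Rtp4* (2.30), *Irf7* (2.01), *Usp18* (1.90), and *Bst2* (1.81) also passed, and *Stat2* had 1.15 (adjusted p = 0.0694). With a mouse left out as well, a setting chosen after seeing the data, no gene was called without WT mouse 1 or 2, 6 without ArcSwe mouse 3, and 16 to 24 without any of the others. The 9 pan-endothelial markers, none of them at 0, summed to 670, 564, and 985 CPM in the microglia of WT mice and 819, 566, and 2431 CPM in those of ArcSwe mice, and without the low-ribosomal clusters to 569, 496, and 978 CPM against 850.2, 191, and 2847 CPM. With all microglia 0 of the 9 were non-overlapping and higher in ArcSwe mice, and without these clusters 1 of the 9 was. Their part in the result was not tested.

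The barrier endothelium showed smaller differences, most of them above 0. In capillary EC all 31 genes were tested and 28 had a log2 fold change above 0 (49.6% of 12834 genes), with a median of 0.44 against -0.00 over all genes (0.245 without ArcSwe mouse 3). edgeR called none (0% of all genes), while 16 had an unadjusted p under 0.05 and were higher in ArcSwe (2.63% of all genes) and 11 did not overlap (3.46%). DESeq2, which gave no adjusted p for 1 of the 31 genes, called 2, *Trim69* (adjusted p = 0.00563) and *Ifit3b* (adjusted p = 0.0459), against 0.0935% of all genes.

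*Trim69*, a ubiquitin ligase gene, had 6.06, 3.29, and 3.75 CPM in the capillary EC of WT mice and 10.2, 10.1, and 30.4 CPM in those of ArcSwe mice, a log2 fold change of 1.99 ± 0.47 (edgeR, adjusted p = 0.889). All ArcSwe mice were above all WT mice and ArcSwe mouse 3 was well above the others, without which the log2 fold change was 1.25. *Ifit3b* had 17.7, 12.7, and 12.8 CPM against 25.6, 20.5, and 31.4 CPM (0.88 ± 0.19), again without overlap. *Zbp1* (1.30), *Ifit2* (0.71), and *Irf7* (0.71) were the other 3 of the 5 non-overlapping genes with the largest difference. *Ifitm3* had 869, 768, and 854 CPM against 1133, 877, and 1201 CPM (0.40 ± 0.14, edgeR, adjusted p = 0.963), and the ArcSwe mice were all above the WT mice by a small margin. *Usp18* (0.41) did not overlap either, whereas *Ifit3* (0.90), *Isg15* (0.50), *Ifi27l2a* (0.48), *Rtp4* (0.44), *Bst2* (0.30), and *Stat2* (0.08) did.

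In arterial EC 30 of the 31 genes were tested, 28 had a log2 fold change above 0 (49% of 11185 genes), and the median was 0.36 against -0.00 (0.224 without ArcSwe mouse 3). edgeR called none (0.00894% of all genes in either direction), 14 had an unadjusted p under 0.05 and were higher (2.48%), and 12 did not overlap (3.17%). DESeq2 called 1 of 30, *Ifit3* (adjusted p = 0.0213), against 0.116% of all genes. *Ifit3* stood at 62.3, 42.2, and 57.6 CPM in WT mice and 100.4, 74.9, and 93.4 CPM in ArcSwe mice (0.78 ± 0.16, edgeR, adjusted p = 0.502). The ranges were apart, with the lowest ArcSwe mouse above the highest WT mouse.

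The non-overlapping arterial genes with the largest differences were *Trim69* (2.26, 2.94, and 4.78 CPM in WT, 7.99, 6.85, and 12.4 CPM in ArcSwe mice; 1.53 ± 0.33), *Zbp1* (1.02 ± 0.23), *Ifit3b* (0.81 ± 0.21), *Ifit3*, and *Irf7* (87.6, 77.5, and 69.3 CPM against 119, 102, and 117 CPM; 0.57 ± 0.13). *Ifitm3* had 1544, 1332, and 1427 CPM against 1832, 1775, and 1889 CPM (0.39 ± 0.13), also without overlap, as did *Rtp4* (0.37). *Isg15* (0.40), *Bst2* (0.23), *Stat2* (0.21), *Usp18* (0.21), and *Ifi27l2a* (0.19) overlapped. All 4 *Ifit* genes were higher at an unadjusted p under 0.05 in both arterial and capillary EC.

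Venous EC had the smallest median of the EC classes. Of 26 genes tested, 18 had a log2 fold change above 0 (49% of 8334 genes), with a median of 0.11 against -0.01. The median was -0.044 without ArcSwe mouse 1, 0.00185 without ArcSwe mouse 3, and 0.181 without ArcSwe mouse 2. It was 0.214 with interferon genes in the clustering, where 22 of 24 genes were above 0 and 3 were higher at an unadjusted p under 0.05, and 0.185 with EC of microglial UMIs kept. None was called by edgeR or DESeq2 (0% of all genes in both), none had an unadjusted p under 0.05 in edgeR (1.69% of all genes were higher at that level), and none was non-overlapping (3.62%). *Ifit3* was 53.8, 58.2, and 53.6 CPM in WT mice and 57.7, 21.3, and 61.5 CPM in ArcSwe mice (-0.08 ± 0.27), and ArcSwe mouse 2, with 42 venous cells and 7 *Ifit3* UMIs, lay below the rest. The others lay between 0.72 (*Zbp1*) and -0.09 (*Ifi27l2a*), with *Irf7* at 0.29, *Ifitm3*, *Bst2*, and *Usp18* at 0.19, *Stat2* at 0.02, *Rtp4* at -0.03, and *Isg15* at -0.08.

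Fenestrated EC, which line vessels without a barrier, had the largest endothelial log2 fold changes for the *Ifit* genes. Of 27 genes tested 24 had a log2 fold change above 0 (49.6% of 8018 genes) and the median was 0.54 against -0.00. Of the 27, 19 reached the count minimum in every mouse. The others missed it in at least 1 WT mouse, 1 of them in all, and so entered wholly or partly through the ArcSwe mice. With a filter blind to genotype 17 of 19 genes were above 0 with a median of 0.37, beside 0.44 over 30 genes in capillary EC. edgeR called none (0% of all genes) and DESeq2 none (0.0249%), 11 were higher at an unadjusted p under 0.05 (2.52%), and 8 did not overlap (3.68%). *Ifit3* had 23.0, 9.82, and 24.2 CPM in WT mice and 40.4, 38.5, and 76.1 CPM in ArcSwe mice (1.52 ± 0.36, edgeR, adjusted p = 0.901). *Ifit1* had 20.9, 15.96, and 29.8 CPM against 40.4, 42.4, and 89.2 CPM (1.40 ± 0.35, adjusted p = 0.901). In both genes the genotypes were apart and ArcSwe mouse 3 was the highest.

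*Trim69* (1.86), *Rtp4* (0.88), and *Stat2* (0.68) completed the 5 non-overlapping genes with the largest difference in fenestrated EC, and *Irf7* (0.61) and *Ifitm3* (0.45) did not overlap either. *Stat2* stood at 89.7, 82.3, and 83.8 CPM in WT mice and at 113, 123, and 165 CPM in ArcSwe mice. *Usp18* (1.12), *Isg15* (0.36), and *Bst2* (0.14) overlapped. *Ifi27l2a*, *Zbp1*, *Oasl1*, and *Isg20* had too few UMIs there to be tested.

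**Figure D3:**
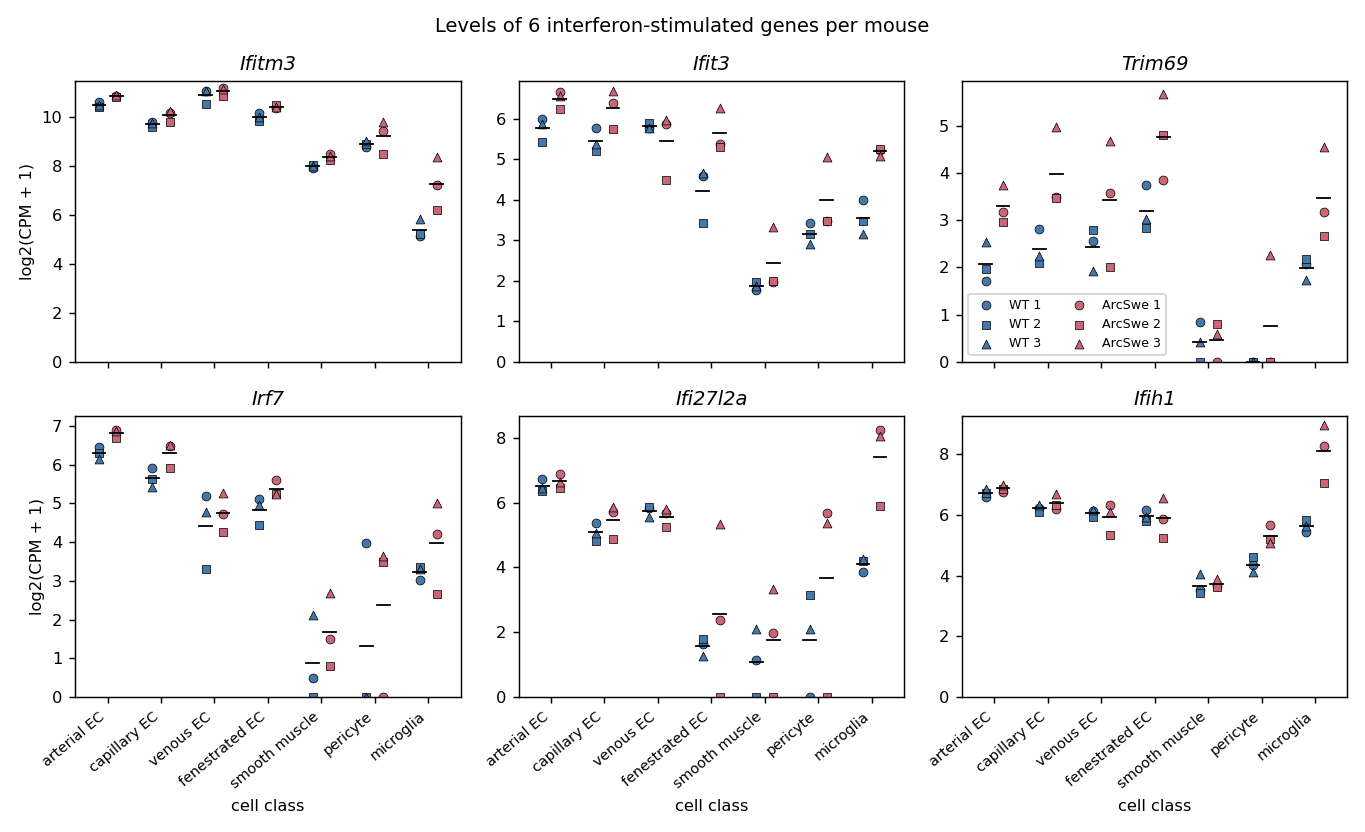
Level of Ifitm3, Ifit3, Trim69, Irf7, Ifi27l2a, and Ifih1 in 7 cell classes as log2(CPM + 1), 1 point per mouse and a bar at the mean of the 3 mice of a genotype. Ifitm3 is high in every endothelial class in both genotypes, while Ifi27l2a and Ifih1 differ most between genotypes in microglia.

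In smooth muscle cells only 12 of the 31 genes had enough UMIs to be tested. Of these 9 had a log2 fold change above 0 (48.8% of 10314 genes), with a median of 0.13 against -0.01 (0.036 without ArcSwe mouse 3, 0.0665 without WT mouse 2, 0.214 without ArcSwe mouse 2, and 0.28 without WT mouse 3), none was called by edgeR (0% of all genes) or DESeq2 (0%), and 1 was higher at an unadjusted p under 0.05 (2.23%) and non-overlapping (3.85%). That gene was *Ifitm3*, with 237, 263, and 253 CPM in WT mice and 356, 297, and 338 CPM in ArcSwe mice (0.42 ± 0.12, edgeR, adjusted p = 0.989). All ArcSwe mice lay above the WT mice. *Stat2* had 0.40, *Isg15* 0.08, and *Bst2* 0.04, all overlapping. The other members always reported were not tested, among them *Ifit3* at 2.40, 2.90, and 2.65 CPM in WT mice and 2.93, 3.01, and 9.13 CPM in ArcSwe mice.

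In pericytes 2 of the 31 genes could be tested, and both had a log2 fold change above 0 (49.8% of all genes). *Ifitm3* had 430.3, 471, and 513 CPM in WT mice and 675, 352, and 875 CPM in ArcSwe mice (0.47 ± 0.26), and *Bst2* had a log2 fold change of 0.23, both overlapping, and edgeR called neither (0% of 3992 genes), with 0 genes higher at an unadjusted p under 0.05 (2.05%) and 0 non-overlapping (3.73%), nor did DESeq2 (0.0251% of all genes). ArcSwe mouse 2 was the lowest for *Ifitm3* and ArcSwe mouse 3 the highest. Of the 29 untested genes, *Ifit3*, *Stat2*, *Ifih1*, *Cmpk2*, and *Lgals3bp* were non-overlapping and higher in ArcSwe mice and *Samd9l* non-overlapping and lower, each on at most 17 UMIs per mouse. These 6 were picked by that pattern, and the rest of the members always reported were not tested.

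Perivascular macrophages allowed 1 WT mouse, with 41 cells, against 2 ArcSwe mice, with 11 and 33 cells, so the lone WT mouse is assumed to vary like the ArcSwe mice. Of 16 genes tested 12 had a log2 fold change above 0 (51.9% of 2033 genes), with a median of 0.59 against 0.04, and edgeR called 1, *Oasl1* (0.738% of all genes), an oligoadenylate synthetase-like regulator of *Irf7* translation. *Oasl1* stood at 43.3 CPM (5 UMIs) in WT mouse 3 and at 581 CPM (24 UMIs) and 248 CPM (21 UMIs) in ArcSwe mice 1 and 3 (3.15 ± 0.70, adjusted p = 0.00201). The call has no WT spread behind it, and it was not made by DESeq2 (0% of all genes) or in edgeR with no filter, a filter blind to genotype, or the legacy test. With groups of this size 29.7% of all genes are non-overlapping and higher, and 9 of the 16 members were. Another 2 were non-overlapping and lower (32.2%), and 3 were higher at an unadjusted p under 0.05 in edgeR (3.89%).

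*Ifit3* had 34.7 CPM in the WT mouse and 532 and 35.4 CPM in the ArcSwe mice (2.75, adjusted p = 0.0517), and so depended on ArcSwe mouse 1. *Ifi211* (1.84), *Ifih1* (1.78), and *Samd9l* (1.41) were the other non-overlapping genes with the largest difference. *Isg15* (0.71), *Bst2* (0.53), and *Ifitm3* (0.25) were also non-overlapping, *Rtp4* (0.82) and *Ifi27l2a* (0.10) were not, and *Irf7*, *Stat2*, *Usp18*, and *Zbp1* were not tested.

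**Figure D4:**
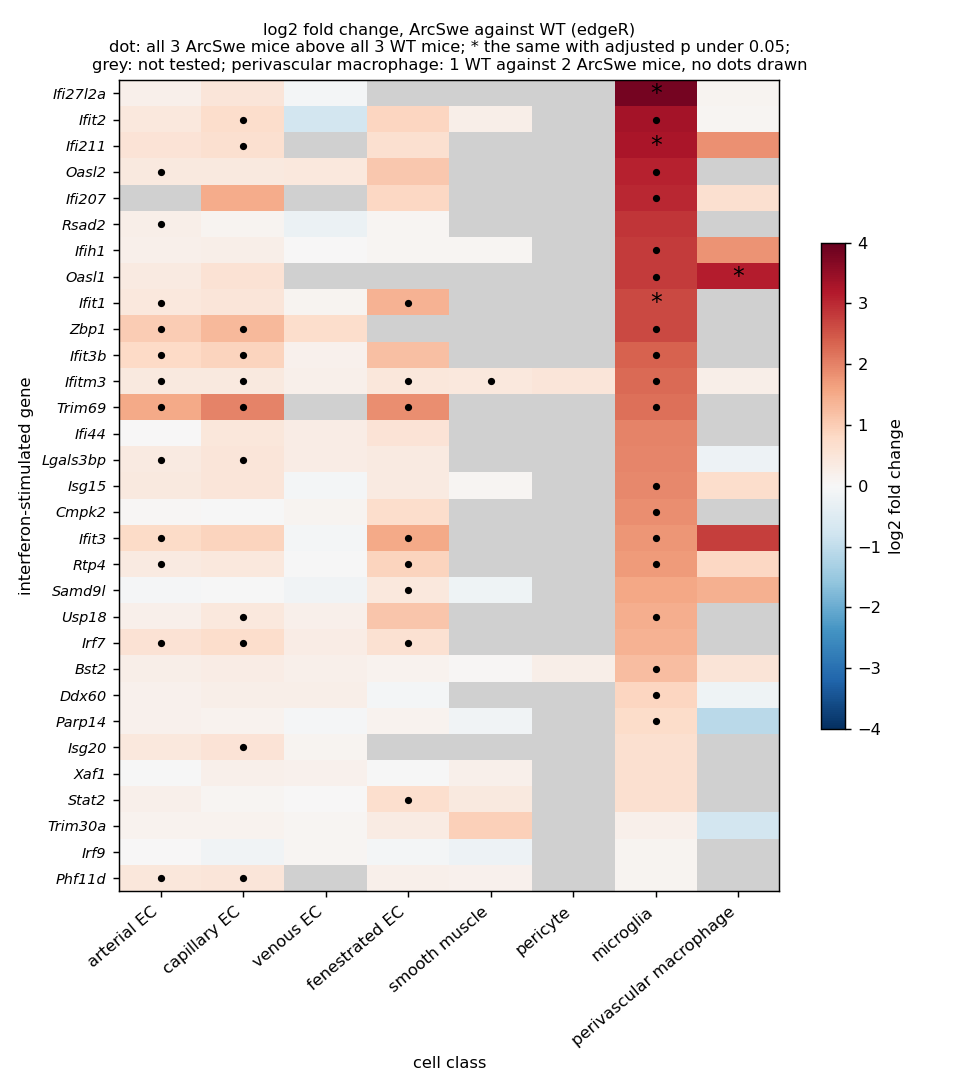
Log2 fold change of each of the 31 genes (rows) between ArcSwe and WT mice in the 8 cell classes (columns), with a dot where all 3 ArcSwe mice lie above all 3 WT mice, an asterisk in its place where the adjusted p in edgeR is under 0.05, and grey where a gene was not tested. The microglial column holds the largest values, and asterisks are seen there for Ifi27l2a, Ifi211, and Ifit1. In perivascular macrophages, with 1 WT against 2 ArcSwe mice, no dots are drawn, and the asterisk of Oasl1 does not stand for 3 mice above 3.

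The classes were then ranked over the genes tested in all of them. Of the 23 genes tested in the 4 EC classes and in microglia, microglia had the largest log2 fold change for 21 and fenestrated EC for 2, and venous EC had the smallest for 16. The medians over these 23 genes were 1.76 in microglia, 0.45 in fenestrated, 0.39 in capillary, 0.23 in arterial, and 0.11 in venous EC. Taken per ArcSwe mouse, the median of the genes varied with an SD of 0.77 in microglia, 0.217 in fenestrated, 0.259 in capillary, 0.125 in arterial, and 0.307 in venous EC, so the order of neighbouring EC classes was within the spread between mice. Over the 11 genes also tested in smooth muscle cells the median there was 0.08, beside 1.25 in microglia and 0.02 in venous EC. Over the 12 genes also tested in perivascular macrophages it was 0.39, beside 1.73 in microglia and 0.37 in fenestrated EC.

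Across classes with 3 mice per genotype, *Ifitm3* was non-overlapping and higher in 5 classes, *Trim69* in 4, and *Ifit1*, *Ifit3*, *Ifit3b*, *Irf7*, *Rtp4*, and *Zbp1* in 3. *Irf9*, *Xaf1*, *Trim30a*, and *Ifi44* were in none, and no tested gene was non-overlapping and lower in any of these classes. Of all genes, 7.14% were so in arterial, 7.59% in capillary, 5.5% in venous, and 5.99% in fenestrated EC, 6.46% in smooth muscle cells, 5.19% in pericytes, and 14.1% in microglia (21.8% without the clusters of low ribosomal content).

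Differences between classes were tested as an interaction of class and genotype, with the mouse as a block. Between microglia and capillary EC the effect was larger in microglia for 30 of 31 genes (48.9% of 13332 genes), with a median difference of 1.26 against -0.01 on the log2 scale. None passed an adjusted p of 0.05 in edgeR (0% of all genes), 20 had an unadjusted p under 0.05 above 0 (5.46%), and DESeq2 called 6 (0.375%). The smallest p values were those of *Ifit1* (2.03 ± 0.27), *Ifi27l2a* (3.10 ± 0.47), *Cmpk2* (a nucleotide kinase gene; 1.88 ± 0.31), *Oasl2* (2.49 ± 0.46), and *Ifih1* (2.39 ± 0.47). Without the microglial clusters of low ribosomal content 1 gene passed, *Oasl2* (3.34 ± 0.33, adjusted p = 0.0346; 0.0154% of all genes). The median difference was then 1.74, 30 of 31 genes were above 0 (47.7%), and 25 had an unadjusted p under 0.05 above 0 (7.84%). The next were *Ifi27l2a* (3.79), *Ifitm3* (2.55), *Bst2* (1.44), and *Isg15* (1.74).

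No other pair of classes gave a call for these genes in edgeR or DESeq2. Between venous and arterial EC (0.0386% of 10352 genes called in edgeR and 0.0193% in DESeq2) the median difference was -0.19, 7 of 29 genes were above 0 (51%), 3 had an unadjusted p under 0.05 (4.8% of all genes), all 3 with the smaller effect in venous EC, and the smallest p belonged to *Ifit3* (-0.86 ± 0.23), followed by *Oasl1* (-1.51), *Ifit2* (-1.11), *Ifit3b* (-0.73), and *Isg15* (-0.49). Of the 29 genes of this pair, 3 were too low to be tested in venous EC alone and entered through arterial EC, *Oasl1* among them. Between smooth muscle cells and capillary EC (0% called) the median difference was 0.09, with 16 of 29 genes above 0 (48.3%) and 3 at an unadjusted p under 0.05 (5.24%). Of these 29 genes, 17 were too low to be tested in smooth muscle cells alone and entered through capillary EC. The first 5 genes were *Isg15* (-0.44), *Rtp4* (1.60), *Bst2* (-0.28), *Stat2* (0.26), and *Trim69* (-2.30), of which *Rtp4* and *Trim69* were among those 17. Between pericytes and capillary EC (0% called) it was 0.42, with 23 of 30 genes above 0 (51.4%) and 5 at that level (3.86%), but 28 of the 30 were too low to be tested in pericytes alone. The 5 were all among these 28. They were led by *Lgals3bp* (2.55) and *Ifi27l2a* (2.81); *Ifit1*, *Cmpk2*, and *Samd9l* (-1.47) came next, and the first 2 of these had no UMI in the pericytes of any WT mouse, so no fold is given.

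Between microglia and perivascular macrophages (0% called) the median difference was 2.03 against 0.26 over all genes, 27 of 30 genes were above 0 (57.9%), and 9 of 30 genes had an unadjusted p under 0.05 above 0 (1.59%). In this pair and the next, the effects in both classes rest on WT mouse 3 against ArcSwe mice 1 and 3. Only these mice had at least 10 macrophages. In WT mouse 3, 88.52% of the microglia were in cluster 13, of low ribosomal content. Of the 30 genes, 14 were too low to be tested in the macrophages alone. The smallest p values were those of *Ifi27l2a* (4.16), *Ifit2* (3.96), *Ifi207* (2.33), *Xaf1* (2.71), and *Bst2* (1.53). Between perivascular macrophages and capillary EC (0% called) it was -0.37 against -0.17, over 31 genes of which 15 were too low to be tested in the macrophages alone, with 11 above 0 (42.5%) and 1 at an unadjusted p under 0.05 (1.35%), and the first 5 were *Xaf1* (-1.97), *Stat2* (-3.80), *Oasl1* (2.62), *Usp18* (2.54), and *Parp14* (-1.45).

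The summed level of the 31 genes gives the size of these differences on a linear scale. It was 652, 686, and 691 CPM in the microglia of WT mice 1, 2, and 3 and 2252, 953, and 2998 CPM in those of ArcSwe mice 1, 2, and 3. In capillary EC it was 2677, 2288, and 2542 CPM against 3171, 2526, and 3627 CPM, and in arterial EC 3693, 3222, and 3527 CPM against 4244, 3938, and 4522 CPM. Microglia and arterial EC did not overlap between genotypes, and capillary EC did. The microglia of ArcSwe mice 1 and 3 lay near the level of the capillary EC of WT mice.

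**Figure D5:**
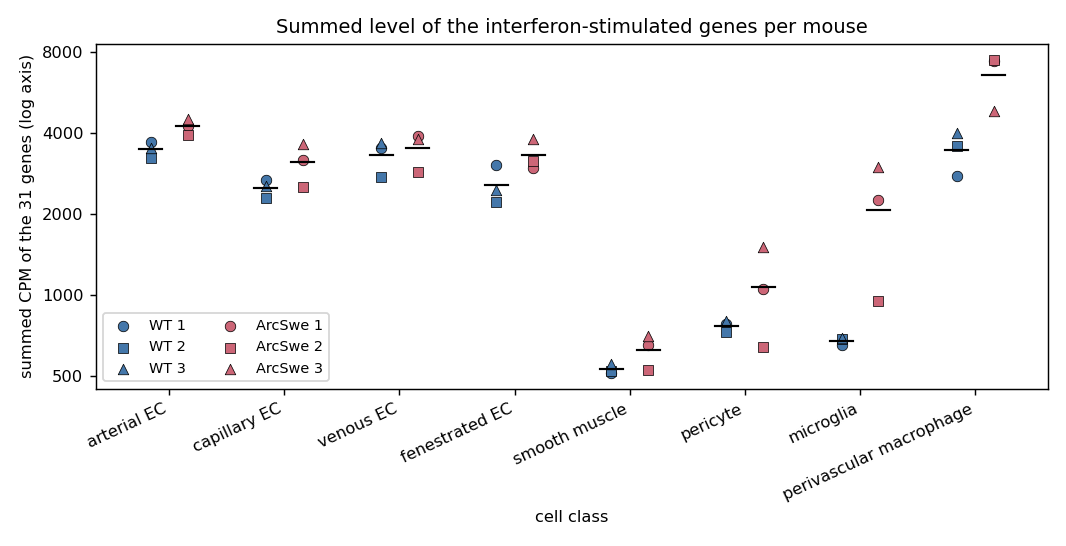
Summed CPM of the 31 genes per mouse (1 point each, log axis) in the 8 cell classes, WT and ArcSwe mice side by side; perivascular macrophages are drawn for all 6 mice, also those under 10 cells. WT microglia lie at 652 to 691 CPM, below every WT endothelial value, and the ArcSwe microglia at 953 to 2998 CPM.

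To see whether UMIs of these genes lay in few or many cells, each cell was thinned to 1000 UMIs. At least 3 UMIs of the 31 genes were found in 4.21, 4.79, and 2.95% of the microglia of WT mice and 19.4, 5.69, and 33.7% of those of ArcSwe mice, without overlap (p = 0.1 in a two-sided exact permutation test, which cannot go lower with 3 mice per genotype). At least 1 such UMI was found in 37.3, 43.5, and 41.8% of WT and 59.8, 39.8, and 72.2% of ArcSwe microglia (exact permutation p = 0.3), with ArcSwe mouse 2 among the WT mice. Shallower cells were left out, between 12 and 844 microglia per mouse. Without thinning the shares with at least 1 UMI were 79.9, 79.6, and 48.6% against 70.8, 57.4, and 71.2% (exact permutation p = 0.8), a different order, at median depths of 1114 to 5934 UMIs per cell. The share with at least 3 UMIs overlapped when cells were thinned to 2000 UMIs. It was then 12.34, 13.77, and 22.16% in WT against 46.41, 14.41, and 80.33% in ArcSwe mice (exact permutation p = 0.2). Without thinning it was 45.2, 43.5, and 9.50% against 37.1, 16.6, and 34.2% (exact permutation p = 0.7).

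In arterial EC at least 3 UMIs were found in 62.3, 54.0, and 54.5% of WT and 67.2, 65.9, and 71.9% of ArcSwe cells (exact permutation p = 0.1), in capillary EC in 43.1, 35.4, and 39.3% against 50.3, 36.3, and 57.4% (exact permutation p = 0.3), and in smooth muscle cells in 2.28, 1.94, and 2.36% against 4.43, 3.57, and 4.58% (exact permutation p = 0.1). The arterial and smooth muscle shares were non-overlapping and the capillary shares were not. With cells thinned to 2000 UMIs the arterial shares stayed apart (exact permutation p = 0.1). Those of smooth muscle cells then overlapped, at 11.35, 13.24, and 9.30% in WT against 15.83, 9.04, and 16.76% in ArcSwe mice (exact permutation p = 0.4). Without thinning the shares of both classes overlapped. At least 1 UMI of these genes was present in 91.7 to 95.7% of arterial cells over the 6 mice. The 5% of cells with most of these UMIs held 14.96 to 18.2% of them in arterial EC and 18.6 to 22.0% in capillary EC. *Ifitm3* was then left out, with cells thinned to 1000 UMIs. The smooth muscle shares with at least 3 UMIs fell to 0.457, 0.556, and 0.472% in WT against 0.604, 0.595, and 1.34% in ArcSwe mice. Those of arterial EC fell to 33.5, 26.4, and 29.2% against 38.5, 35.1, and 42.1%. The genotypes still did not overlap in either class (exact permutation p = 0.1 in each). Without *Ifitm3* at least 1 UMI was found in 77.03 to 84.35% of arterial cells.

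Markers of other cells moved with some of these values. The list of 12 microglial markers stood at 176, 205, and 624 CPM in the capillary EC of WT mice and 373, 237, and 922 CPM in those of ArcSwe mice, with *Cx3cr1* and *Aif1* at 0 because cells with either were removed (1827 of 12919 WT and 3415 of 15789 ArcSwe barrier EC). It was 151, 178, and 482 CPM against 280, 245, and 654 CPM in arterial EC, 175, 599, and 925 CPM against 667, 177, and 1147 CPM in fenestrated EC, and 186, 172, and 609 CPM against 304, 180, and 759 CPM in smooth muscle cells. WT mouse 3 and ArcSwe mouse 3 were the highest of their genotype in each, and in each of these 4 classes 0 of the 12 markers were non-overlapping and higher in ArcSwe mice. In smooth muscle cells the list of 9 fenestrated markers, at 537, 505, and 436 CPM against 556, 610, and 570 CPM, and that of 10 perivascular macrophage markers, at 22.0, 16.45, and 18.9 CPM against 33.3, 27.1, and 29.6 CPM, were non-overlapping and higher in ArcSwe mice, with 3 and 2 of their markers non-overlapping and higher. So were 2 of 10 capillary markers, although that list's sum overlapped. The 9 pan-endothelial markers stood at 136, 121, and 229.9 CPM in the smooth muscle cells of WT mice and 151, 121, and 268 CPM in those of ArcSwe mice. The part of such transcripts in the endothelial and mural values was not tested.

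Among 60 other genes of the pathway, fixed as a list of ligands, receptors and kinases, transducers, sensors, and negative regulators, those higher at an unadjusted p under 0.05 in edgeR are given beside the share of all genes. They were 2 of 32 tested in arterial EC (2.48% of all genes), 3 of 36 in capillary EC (2.63%), 1 of 28 in venous EC (1.69%), 2 of 27 in fenestrated EC (2.52%), 2 of 29 in smooth muscle cells (2.23%), 1 of 13 in pericytes (2.05%), 4 of 38 in microglia (7.32%), and 2 of 20 in perivascular macrophages (3.89%). Lower at that level were 2 in venous EC (1.74% of all genes), 1 in fenestrated EC (1.82%), and 1 in microglia (3.57%). *Stat3*, which carries signals of interleukin receptors as well, was at this level in 6 classes. In arterial EC it had 252, 237, and 216 CPM in WT mice and 320.2, 291, and 332 CPM in ArcSwe mice, without overlap (0.45). It had 0.40 in capillary, 0.35 in venous, and 0.48 in fenestrated EC, 0.34 in smooth muscle cells, and 0.68 in microglia, and 0.01 in microglia without the clusters of low ribosomal content. None of these passed the adjusted threshold.

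The receptor chain *Ifnar1* had -0.05, 0.11, 0.10, and 0.92 in arterial, capillary, venous, and fenestrated EC, -0.01 in smooth muscle cells, and 0.18 in microglia. In fenestrated EC its values were 18.8, 20.9, and 39.8 CPM against 46.3, 46.2, and 57.1 CPM, non-overlapping but not called (adjusted p = 0.999). *Ifnar2* lay between 0.01 and 0.31 in the classes where it was tested with 3 mice per genotype.

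The other pathway genes with the smallest p in a class were *Samhd1*, a nucleotide hydrolase (0.28 in arterial and 0.22 in capillary EC), *Irf5* (-0.84) and the DNA sensor *Aim2* (-0.67) in venous EC, and the phosphatases *Ptpn1* (-0.46) in fenestrated EC and *Ptpn2* (0.65) in smooth muscle cells. In pericytes *Socs3*, a feedback inhibitor of STAT3 signalling, had 103, 228, and 129.8 CPM in WT mice and 307, 377, and 266 CPM in ArcSwe mice, without overlap (1.13 ± 0.27, edgeR, adjusted p = 0.829). *Mavs*, the adaptor of MDA5, had -0.81 in microglia (18.7, 17.4, and 18.1 CPM against 8.34, 7.10, and 11.5 CPM, adjusted p = 0.344).

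Of the 21 interferon ligand genes in the list, *Ifnb1*, the gene of interferon beta, was the only one with enough UMIs to be tested in any class. In microglia it had 5.38, 14.98, and 5.10 CPM in WT mice and 170.2, 35.5, and 216 CPM in ArcSwe mice, without overlap (4.15 ± 0.68, edgeR, adjusted p = 0.0544), and without the low-ribosomal clusters 4.89 ± 0.54 (adjusted p = 0.00722). In perivascular macrophages it stood at 34.7 CPM (4 UMIs) in the WT mouse and at 1161 CPM (48 UMIs) and 284 CPM (24 UMIs) in the ArcSwe mice, a description that rests on 1 WT mouse, and 46 of the 48 UMIs of ArcSwe mouse 1 came from 1 cell. Cluster 17 held 90.6, 15, and 85.5% of the microglial *Ifnb1* UMIs of ArcSwe mice 1, 2, and 3.

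In ArcSwe mouse 3, 10.7% of the microglia had an *Ifnb1* UMI, up to 43 in a cell and at least 3 in 97 cells. In the same mouse 2.30% of arterial, 2.24% of capillary, 2.57% of venous, and 1.57% of fenestrated EC, 2.20% of smooth muscle cells, and 2.34% of pericytes had one, with no more than 2 in any cell, at median depths of 2196 to 4364 UMIs against 1114 UMIs in microglia. The shares outside the microglia lay close together, and the part of free RNA in them was not tested.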

How the data were processed

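The sources state that 10x Genomics 3′ single-cell libraries of 6 mice were pooled for sequencing. The authors deposited unnormalized UMI counts for each gene in each cell. Per the submitters' processing notes these came from Cell Ranger 7.0.0 and mm10, to which the study added sequences of *Clec7a* and human *NOTCH3*. The 31 members, the pathway list, and the classes were chosen with earlier results of these data known.

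Cells with 500 to 4500 genes and under 10% mitochondrial UMIs were kept, as in the study's methods. They were clustered with scanpy 1.11.5, scikit-learn 1.9.0, and leidenalg 0.10.2 (2000 variable genes without interferon genes, 30 components, 20 neighbours, resolution 1) and named from marker lists. Barrier EC with *Cx3cr1* or *Aif1* UMIs were left out. Scrublet marked 0.245% of cells, so it did not work as a doublet caller and removed none. Ribosomal, mitochondrial, pseudogene, and Rik genes were dropped.

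UMIs were summed per mouse and class (127389 to 15906718 UMIs in the classes tested with 3 mice per genotype) for mice with at least 10 cells, filtered with filterByExpr, scaled with TMM, and tested by genotype with edgeR 4.0.16 (glmQLFTest, R 4.3.3), with Benjamini-Hochberg adjustment over all genes of a class but not over classes. Log2 fold changes are given with SE, and CPM values are per 1000000 UMIs of the class in that mouse. DESeq2 1.42.0 (the study's test) was an alternative, beside other normalizations, filters, clusterings, and leaving out each mouse. Non-overlapping means that all mice of a genotype lie on one side of all mice of the other. The genes named in each class are every member called, the 5 non-overlapping members with the largest difference, 10 members given in every class, the 5 members with the smallest p of each interaction, and of the pathway list the called genes or the 2 with the smallest p, with *Ifnar1* and *Ifnar2*; 1 further gene of that list is not reported here.

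The test was tried on simulated counts in which 200 genes of each class were changed. At a log2 fold of 1 it recovered 138 in arterial, 127 in capillary, 101 in venous, and 86 in fenestrated EC, 127 in smooth muscle cells, 94 in pericytes, and 0 in microglia. At a log2 fold of 2 it recovered 167 in microglia. Unchanged genes called at a log2 fold of 1 numbered 7 in arterial, 16 in capillary, 13 in venous, and 12 in fenestrated EC. They numbered 9 in smooth muscle cells, 3 in pericytes, and 0 in microglia. With 200 changed genes the adjusted threshold is easier to pass than in the real fits, where edgeR called 1 gene in arterial and 0 in capillary EC. The recovered counts therefore do not give the power for the 31 genes.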

Additional observations from a re-analysis of the deposited data

Results flagged for a closer look

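The genotype difference of *Oasl2* was larger in microglia than in capillary EC by 3.34 on the log2 scale once the microglial clusters of low ribosomal content were left out (SE 0.33, edgeR interaction with the mouse as a block, adjusted p = 0.0346). It is given here because it was the only member for which a test of the difference between 2 classes passed in edgeR with every mouse in the fit. With all microglia the same difference was 2.49 and did not pass in edgeR, while DESeq2 called 6 members.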

How the results depend on the processing

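Of 348 summary values recomputed under an alternative, 306 were marked as unchanged. A count was so marked when equal or within a fixed factor, and a share of cells when its difference kept its sign. A median was so marked when it moved by less than the SD over the ArcSwe mice. Some medians marked as unchanged did change sign, such as those of venous EC without ArcSwe mouse 1 (-0.044) and of pericytes without ArcSwe mouse 3 (-0.0815). DESeq2 raised the number of genes called from 0 to 1 in arterial EC, from 0 to 2 in capillary EC, from 3 to 18 in microglia (19 without the clusters of low ribosomal content, chosen after seeing the data), and from 0 to 6 for the difference between microglia and capillary EC, and lowered it from 1 to 0 in perivascular macrophages. In microglia the count was 7 with RLE normalization, 11 with no low-count filter, 20 without the low-ribosomal clusters, and 1 with a filter blind to genotype, the legacy quasi-likelihood test, a stricter cell filter, or resolution 2. It was 0 without Scrublet doublets or with interferon genes in the clustering. The cause was not tested. Leaving out a mouse gave 0 to 14, namely 0 without WT mouse 1 or 2 or ArcSwe mouse 1 or 3, 14 without WT mouse 3, and 11 without ArcSwe mouse 2. With the low-ribosomal clusters left out as well (chosen after seeing the data) it was 0 without WT mouse 1 or 2, 24 without WT mouse 3, 16 and 20 without ArcSwe mouse 1 or 2, and 6 without ArcSwe mouse 3. The difference between microglia and capillary EC had 1 call without these clusters and 0 to 3 on leaving out a mouse, 3 without ArcSwe mouse 2. In perivascular macrophages the count was 2 with RLE and 0 with no filter, a filter blind to genotype, or the legacy test, and the median 0.148 with no filter, and leaving out a mouse could not be fitted there for the differences between classes.

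The median of the members in arterial EC was 0.195 at resolution 2 and 0.224 to 0.369 on leaving out a mouse, the lowest without ArcSwe mouse 3. It was 0.467 in smooth muscle cells with no filter. The median difference to capillary EC ran from -0.273 to 0.223 in smooth muscle cells and from -0.272 to 0.635 in pericytes on leaving out a mouse. Both were below 0 without ArcSwe mouse 3. That of smooth muscle cells was also below 0 without WT mouse 1 (-0.148) and with DESeq2 on all mice (-0.115). With no thinning the share of cells with a member UMI was lower in ArcSwe mice, by -0.65 percentage points in fenestrated EC and -2.91 in microglia.

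Among the named genes, the signs that turned belonged to genes that were not called in any of these settings. At resolution 2 these were *Usp18* in arterial EC (-0.00551) and *Isg15* in smooth muscle cells (-0.0402). With interferon genes in the clustering they were *Isg15* (0.17), *Ifit3* (0.721), and *Rtp4* (0.134) in venous EC, and with EC of microglial UMIs kept *Ifit3* (0.231), *Ifi27l2a* (0.0821), and *Rtp4* (0.0879) there. A stricter cell filter turned *Stat2* (-0.00826) and the legacy test *Rtp4* (0.00757) in venous EC. Without cells of microglial UMIs *Isg15* (-0.0896) and *Bst2* (-0.0517) turned in smooth muscle cells, and *Ifi27l2a* in perivascular macrophages did with no filter (-0.0177) or a blind filter (-0.000607). Leaving out a mouse turned *Stat2* in capillary EC (-0.051 to 0.187), *Isg15* (-0.445 to 0.308), *Ifit3* (-0.254 to 0.124), *Rtp4* (-0.324 to 0.151), *Ifi27l2a* (-0.196 to 0.0118), *Irf7* (-0.0127 to 0.658), *Stat2* (-0.0862 to 0.0951), and *Usp18* (-0.00746 to 0.419) in venous EC, *Isg15* in fenestrated EC (-0.0497 to 0.556), *Isg15* (-0.117 to 0.272) and *Bst2* (-0.0811 to 0.204) in smooth muscle cells, and *Bst2* in pericytes (-0.306 to 0.397).

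Replicate numbers are shared by the genotypes in the labels, but not every pair of mice with the same number deviated together: 20 of 21 pairs had a correlation over 0 and 11 one over 0.1 (range -0.08 to 0.35), among them the pair numbered 3 in 7 of 7 classes, and 24 of 42 samples correlated best with their own number. With a replicate block edgeR called 1 gene in arterial EC, *Ifit3*, and 3 in microglia. The mural classes had the most genes too low to test, 19 in smooth muscle cells and 29 in pericytes. Depth alone does not set smooth muscle cells apart. They held 1330409 to 4051777 UMIs per mouse, against 328286 to 1455678 UMIs in venous EC, where 26 genes were tested. Simulated log2 folds of 1 were not recovered in microglia.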

Other observations

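A single arterial EC of WT mouse 3 held 108 *Ifnb1* UMIs and 705 UMIs of the 31 genes among its 10462 UMIs. It also held 84 UMIs of the pan-endothelial markers, 12 of the microglial markers, and none of the perivascular macrophage or of the monocyte and neutrophil markers. This cell carried 4.34% of the 16232 UMIs of the 31 genes in the arterial EC of that mouse, whose summed level was 3527 CPM with it and 3382 CPM without it. No other arterial, venous, or fenestrated EC, smooth muscle cell, or pericyte of a WT mouse had an *Ifnb1* UMI. The cell was picked out after its values were seen.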
